A study of Mus musculus with 28 samples.

Results

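The 10 genes described here, Hpcal4, Hpca, Camk2a, Kalrn, Ddn, Lamp5, Rasgrp1, Resp18, Stum and Htr2c, were chosen by their measured array intensities: they had some of the largest falls in mouse brain tumours relative to normal brain. They are 10 of the 18193 genes that had a probe set annotated to that gene alone, and all 10 were among the 13931 genes above the filter on low values. Each gene is represented by its brightest probe set. Because the choice rested on tumours against normal brain, the size of those falls is given as a description, with no test, and supports nothing.

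Several of the 10, among them Hpca, Camk2a, Kalrn and Rasgrp1, belong to the calcium and second-messenger machinery of neurons. Calcium that enters a dendritic spine binds sensors such as hippocalcin and calmodulin. Calmodulin activates CaM kinase II, and exchange factors pass the signal to small GTPases that shape the spine and its actin skeleton. Neurons of the hippocampus, cortex and striatum use this machinery heavily, whereas the granule and Purkinje neurons of the cerebellum use partly different genes. Gabra6, a subunit of the GABA-A receptor, is a marker of cerebellar granule neurons.

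The study compared 10 medulloblastomas, tumours of the cerebellum, and 6 gliomas, tumours with glial features, with 12 samples labelled normal brain. All mice except 1 carried hGFAP-Cre, a recombinase transgene under a human GFAP promoter that is active in neural progenitors and glia, and all of these were labelled p53-/-. They differed in Rictor, a subunit of the kinase complex mTORC2. Among medulloblastomas 5 were Rictor-/-, 2 Rictor+/- and 3 without a Rictor allele in their label, called p53-null only here. Among gliomas 1 was Rictor-/-, 4 were Rictor+/- and 1 was p53-null only. Among normal brains 5 were Rictor-/-, 5 Rictor+/-, 1 p53-null only and 1 from an animal labelled as a normal mouse with wild-type p53. All normal brains but the last therefore shared the p53 loss and the Cre transgene with the tumours. No treatment and no age is given. The labels state a tumour cell content of 70% or more for the tumours. They name no region for the normal brains and do not say whether the samples of a group were taken from different animals. The p-values below therefore reflect sample-to-sample spread that may be technical. Arrays are named by their tissue and the code in their titles.

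Intensities are on the linear scale of the deposited table, where each array had been scaled to the same trimmed mean of 100. The median intensity of an array lay between 18.8 and 27.8. The 25th percentile of the table was 6.3, and tumour values near or below it have no reliable order. Rictor itself read 68.8 to 235.8 in the 5 Rictor-null medulloblastomas, against 260.8 to 276.8 in the 2 heterozygous and 222.7 to 273.3 in the 3 p53-null-only ones. In normal brain it read 213.3 to 443.9 in the 5 Rictor-null samples and 250.5 to 388.6 in the 5 heterozygous ones, so those groups overlapped. Whether its probe set lies in the deleted part is not given, so this does not settle the labels.

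Some arrays stood apart from their label, and some of the results are given with and without them. Gabra6 was 4918.3 in normal brain Z2, 4153.4 in C5 and 1740.4 in B2, against 1.1 to 116.3 in the other 9 normal brains. These 3 are called the Gabra6-rich normal brains. They comprise the wild-type sample, 1 Rictor-null and 1 Rictor-heterozygous sample, so the only wild-type array is also Gabra6-rich, and genotype and tissue content cannot be told apart there. Some tumours had Gabra6 as well. It ran from 8.1 to 1637.5 in medulloblastoma, with C6 at 1324.3 and C1 at 10.5. In glioma it ran from 7.3, in B3, to 1014. The markers of cerebellar granule neurons were 2.87 higher in the Gabra6-rich brains than in the other 9 (median over 13 genes, log2), and those of Purkinje neurons 2.62 higher (7 genes). The 13 include Gabra6 itself, which made the split. The 3' to 5' ratio of the actin control probe sets, which rises as RNA degrades, also moved with this split. It was 3.45 to 6.21 in the Gabra6-rich brains and 1.99 to 4.95 in the other 9. In tumours it was lower by median, with 2.58 in medulloblastoma (1.49 to 4.38) and 2.21 in glioma (1.73 to 2.78). The actin medians were 6.01 in the Gabra6-rich and 3.18 in the other normal brains. The same ratio for the Gapdh controls was 1.88 in Z2, 2.58 in B2 and 1.18 in C5, against 0.972 to 1.52 in the other 9. It was 0.874 to 1.63 in medulloblastoma and 1.04 to 1.74 in glioma, so by this control the tumours were not set below the normal brains. The part of these ratios in the results was not tested. Normal brain C2 stood apart in the cell cycle list, with a median log2 level of 7.55. Its Mki67, a marker of dividing cells, was 274.8, against 2.8 to 53.7 in the other 11 normal brains. Without C2 the members' median log2 difference was -4.98 in medulloblastoma and -5.05 in glioma. Among tumours, medulloblastomas C1 and C6 and glioma B3 had the highest member levels.

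The calcium sensors of the hippocalcin family, Hpcal4 and Hpca, did not share 1 pattern. Hpcal4, a neuronal calcium sensor of the visinin-like group, had a median intensity of 8.8 in medulloblastoma (4.5 to 881.4) and 24.6 in glioma (2.9 to 172.1). It read 137.9, 163.6 and 213.5 in the Gabra6-rich normal brains, and had a median of 1988 in the other 9 normal brains (1660.5 to 2539). Every tumour lay below every one of those 9 brains, but medulloblastoma C1, at 881.4, lay above the Gabra6-rich ones.

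Hpca, hippocalcin, a sensor that moves to membranes when it binds calcium, followed another course in medulloblastoma. Its intensity there had a median of 1065 (212.1 to 1733.1), against 30.95 in glioma (6.3 to 107.4). The Gabra6-rich normal brains read 219.5, 267.2 and 394, and the other 9 had a median of 1715 (1187.6 to 2592.2). All 10 medulloblastomas lay above every glioma, with a ratio of medians of 34.4, and 8 of 10 lay above every Gabra6-rich brain. Hpca thus entered the set through glioma, where its log2 difference from normal brain was -5.21, the third largest fall of 13931 genes, whereas its difference in medulloblastoma was -0.55 and ranked 3775. Without the Gabra6-rich brains the medulloblastoma difference was -0.97. It was -0.08 within the arrays whose titles carry YZ and -1.15 within those that carry YZ2. A second Hpca probe set had the same order of tissue medians, 208.45 in medulloblastoma, 8 in glioma, 30.2 in Gabra6-rich and 436.6 in the other normal brains.

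The promoter windows of this pair are shown because Hpcal4 and Hpca are related sensors on the same chromosome whose levels parted in medulloblastoma. Each window runs from 250 bases before to 50 bases after a transcript start in RefSeq, build GRCm38.p6, 5′ to 3′ on the strand of the gene. The Hpcal4 window is chr4:123183254-123183553 on the plus strand, and the Hpca window shown, the one of its 3 with the most CpG pairs, is chr4:129121254-129121553 on the minus strand. Capitals mark E-boxes (CANNTG) and GC boxes (GGGCGG), searched on both strands, with overlapping matches run together.

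Hpcal4: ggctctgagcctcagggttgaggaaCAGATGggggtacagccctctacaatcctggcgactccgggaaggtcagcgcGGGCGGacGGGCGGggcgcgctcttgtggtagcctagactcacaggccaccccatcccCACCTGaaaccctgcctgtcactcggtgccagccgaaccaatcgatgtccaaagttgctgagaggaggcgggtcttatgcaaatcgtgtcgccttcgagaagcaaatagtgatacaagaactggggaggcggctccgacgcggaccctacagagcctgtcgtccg

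Hpca: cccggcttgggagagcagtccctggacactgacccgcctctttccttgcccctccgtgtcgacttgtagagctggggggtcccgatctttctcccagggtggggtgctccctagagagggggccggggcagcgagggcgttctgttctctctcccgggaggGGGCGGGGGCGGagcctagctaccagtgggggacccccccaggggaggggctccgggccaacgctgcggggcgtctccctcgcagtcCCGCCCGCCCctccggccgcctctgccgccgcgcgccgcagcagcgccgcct

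The Hpcal4 window held 2 E-boxes, 2 GC boxes and 22 CpG pairs, and the Hpca window shown held 0 E-boxes, 4 GC boxes and 27 CpG pairs. The other 2 Hpca windows held 2 and 4 E-boxes, 1 and 0 GC boxes, and 8 and 4 CpG pairs. Hpca windows therefore did not lack E-boxes as a set. Over 8 of the 10 members with an entry, 11 windows were read. An E-box was in 9 of them, against 72.3% of all 32851 windows of the same length, and a GC box in 5, against 35.7%. A CCAAT box (CCAAT) was in 4, against 37.4%, and the half-site of the cyclic AMP response element (TGACG) in 0, against 20.8%. These matches describe the letters of the windows only. Camk2a and Ddn had no entry.

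Camk2a encodes the alpha subunit of CaM kinase II, the abundant synaptic kinase of forebrain excitatory neurons. It had a median of 13.85 in medulloblastoma (0.4 to 695.7) and 32.95 in glioma (3.5 to 249.2). It read 172.3, 222.5 and 267.5 in the Gabra6-rich normal brains and had a median of 2556 in the other 9 (1782.3 to 2944). All 16 tumours lay below each of those 9. Against the Gabra6-rich brains, 8 of 10 medulloblastomas and 5 of 6 gliomas lay below all 3.

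Kalrn and Rasgrp1 encode exchange factors. Kalirin acts in dendritic spines, and Rasgrp1 activates Ras in response to calcium and diacylglycerol. Kalrn had a median of 12 in medulloblastoma (0.8 to 294.2) and 31.95 in glioma (7.7 to 47.4). It read 105.6, 203.6 and 256.1 in the Gabra6-rich brains, with a median of 1499 in the other 9 (847 to 2207.4). Medulloblastoma C1 was the only tumour above the lowest of the Gabra6-rich brains for this gene.

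Rasgrp1 had a median of 15.75 in medulloblastoma (5.1 to 285.5) and 28.95 in glioma (12.8 to 50.3). It read 167.3, 238.7 and 279.7 in the Gabra6-rich brains and had a median of 1766 in the other 9 (1532.9 to 1994.7). Medulloblastomas C1 and C6, at 274.2 and 285.5, reached the Gabra6-rich level, and all other tumours were below it.

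Ddn encodes dendrin, a protein of dendrites and postsynaptic sites that is also made in kidney podocytes. Its median was 13.05 in medulloblastoma (1.9 to 1091) and 16.95 in glioma (11.8 to 61.7). It read 21.7, 24.8 and 27.8 in the Gabra6-rich normal brains, against a median of 2366 in the other 9 (1890.7 to 3166.9). Dendrin therefore separated the normal brains more widely than any other member, by a ratio of medians of 95.4, and the Gabra6-rich brains lay within the range of the tumours.

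Stum is the mouse relative of a Drosophila gene needed for transduction in mechanosensory neurons. It had a median of 12 in medulloblastoma (1 to 397.1) and 20.3 in glioma (10.2 to 124.9). It read 71.7, 91.3 and 114.9 in the Gabra6-rich brains, with a median of 1159 in the other 9 (892.9 to 1741.6). The tumours and the Gabra6-rich brains overlapped through medulloblastoma C1 and glioma B3.

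Lamp5, Resp18 and Htr2c behaved differently within normal brain. Lamp5 encodes a neuronal relative of the lysosomal membrane proteins that marks a class of cortical interneurons. It had a median of 10.65 in medulloblastoma (1.4 to 123.2) and 3.6 in glioma (0.3 to 140.5), and its values in Gabra6-rich brains were 1.4 in Z2, 113.8 in C5 and 922 in B2. The other 9 normal brains had a median of 617 (258.6 to 856.7). Normal brain B2 was thus the highest of all 28 arrays, and Z2 lay among the tumours.

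Resp18 encodes a protein of the secretory pathway of neuroendocrine cells. It had a median of 14.7 in medulloblastoma (0.4 to 257.7) and 19.9 in glioma (0.4 to 358.3). It read 123 in Z2, 500.8 in C5 and 1670.9 in B2, and had a median of 865.6 in the other 9 normal brains (638.2 to 1410.9). Normal brain B2 was again the highest of all arrays.

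Htr2c encodes the serotonin 2C receptor, which is made by neurons of several brain regions and by the choroid plexus epithelium. It had a median of 6.8 in medulloblastoma (1.4 to 186.8) and 4 in glioma (2.8 to 186.4). It read 16.6 in Z2, 266.5 in C5 and 795.5 in B2, and had a median of 614.4 in the other 9 normal brains (482.4 to 1240.1). Medulloblastomas B4, at 169, and A5, at 64.8, also had the highest level of the choroid plexus markers among medulloblastomas. The median log2 level of those 6 markers was 7.70 in B4 and 6.94 in A5, and 3.50 to 4.57 in the other 8. Medulloblastoma C1 had Htr2c at 186.8 with the markers at 3.95, and glioma B3 had it at 186.4 with the markers at 4.08. Normal brain C1 had the highest Htr2c, 1240.1, with the markers at 5.03, against a median of 6.26 over the 12 normal brains. The part of choroid plexus in these values was not tested.

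**Figure D1:**
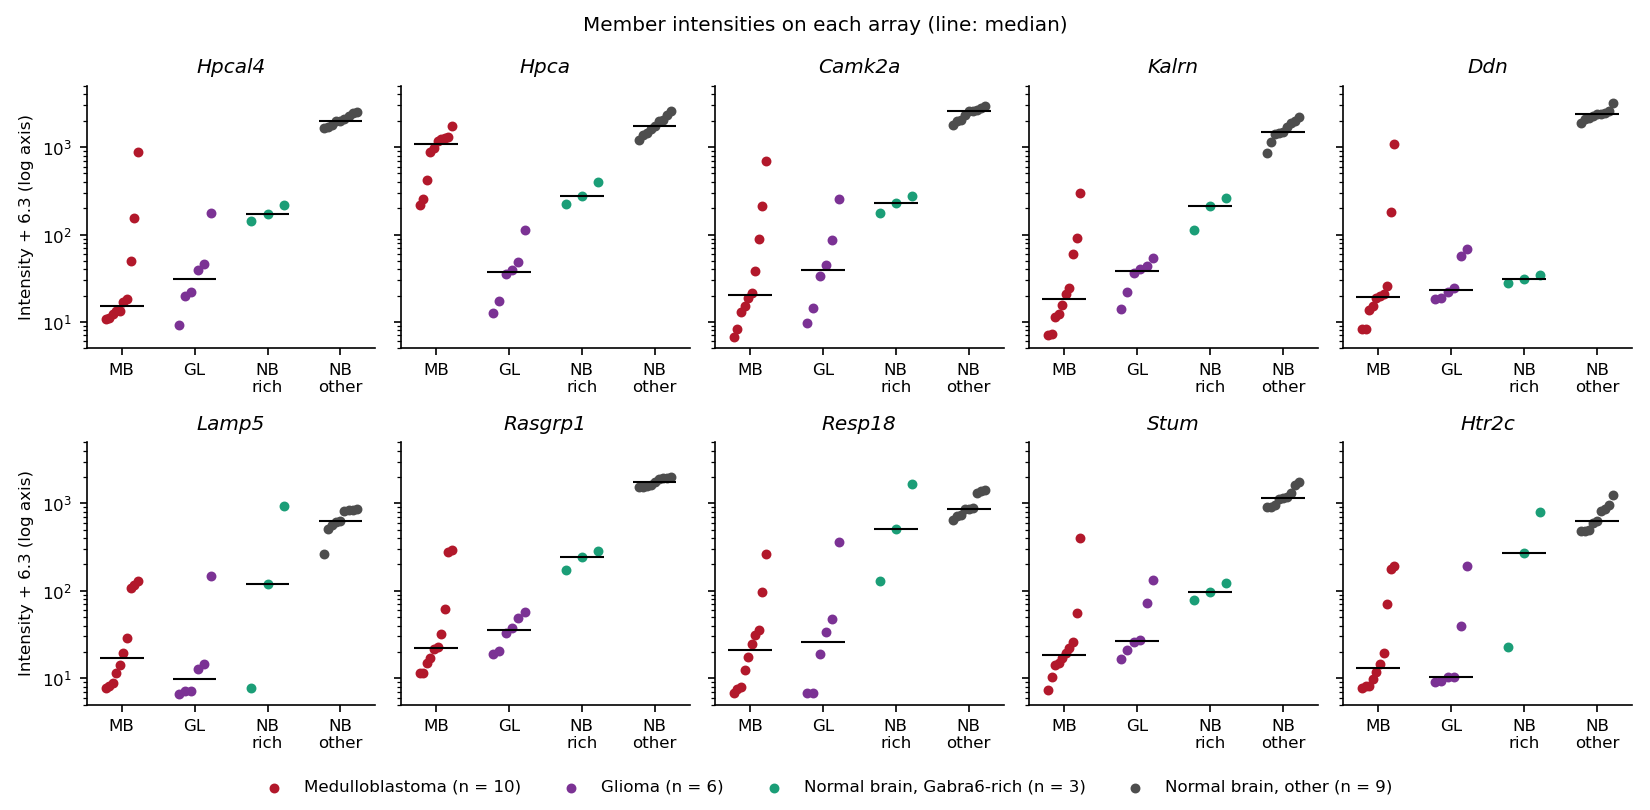
Intensity plus 6.3 of the brightest probe set (log axis) for each of the 10 members, 1 point an array, in 10 medulloblastomas (MB), 6 gliomas (GL), the 3 Gabra6-rich normal brains and the other 9 normal brains (NB), with a line at each median. Hpca is the member whose medulloblastomas lie near the other normal brains (median intensity 1065), and Ddn the one whose Gabra6-rich brains lie at the tumour level (21.7 to 27.8).

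The differences that chose the members were large by construction. In the limma fit of the 28 arrays the median log2 difference of the 10 was -5.04 in medulloblastoma and -5.05 in glioma, against 0.01 and 0.05 over all genes tested. The wild-type brain Z2, alone in its genotype, had no weight in these differences. At an adjusted p under 0.05, 9 of the 10 lay lower in medulloblastoma, where 32% of all genes tested did, and 10 of 10 in glioma, where 25.5% did. Nothing is read from these counts, since the choice used the same contrasts. The members with the smallest falls, Hpca in medulloblastoma apart, were Lamp5, at rank 21 in medulloblastoma with -4.42, and Stum, at rank 24 in glioma with -4.25. Among genes that are no members, Tac1, Mobp and Mal2 ranked 2, 8 and 9 in medulloblastoma, and Ttr and Mal2 ranked 1 and 9 in glioma. In bulk tissue, fewer neurons in a sample and less RNA per neuron cannot be told apart.

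Other probe sets of the members moved with the brightest ones. The 10 genes had 27 probe sets, and 5 genes had 1 only. Of the 17 that were not the brightest, 13 were above the filter, and all 13 had lower medians in medulloblastoma and in glioma than in normal brain and lower medians in the Gabra6-rich brains than in the other 9.

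Set apart, the Gabra6-rich normal brains had much less of the members than the other normal brains. The median over the 10 genes of the log2 difference was -2.85, against 0.04 over all genes tested. For 7 of 10 members, all 3 Gabra6-rich brains lay below the lowest of the other 9, and 9.17% of all genes tested had such a gap. The ratio of medians, other brains over Gabra6-rich brains, was 12.2 for Hpcal4, 6.42 for Hpca, 11.5 for Camk2a, 7.36 for Kalrn, 95.4 for Ddn, 7.4 for Rasgrp1 and 12.7 for Stum. It was 5.42 for Lamp5, 2.31 for Htr2c and 1.73 for Resp18, the 3 members without such a gap. In each of those 3 the overlap came from normal brain B2, and without B2 the count was 10 of 10. The arrays were split by Gabra6, a measured value, and no test was made. The choice of the members also used these normal brains, 9 of which were not Gabra6-rich, and so favoured genes high in those 9. Nothing is read from the size of these differences or from the count.

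Normal brain B2 also differed from the other Gabra6-rich brains in genes of the hindbrain, which were chosen after their values were seen. Slc6a5, the glycine transporter of inhibitory neurons in brainstem and spinal cord, was 745.5 in B2, with 62.3 to 134.8 in Z2 and C5 and no more than 16.8 in any of the remaining 9. Hoxb3, a positional gene of the hindbrain, was 186.2 in B2 and at most 18.4 in the other 11.

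Tumours lay lower still than the Gabra6-rich brains for most members, but not without overlap. The median over members of the log2 difference of tumour medians from Gabra6-rich medians was -3.49 for medulloblastoma and -2.68 for glioma, against -0.06 and -0.02 over all genes tested. Many of the tumour values are near the 25th percentile of the table, so no order of the members is read from these differences. The members were also chosen for low tumour values against normal brains that include the Gabra6-rich ones. The size of these differences therefore supports nothing. Hpca was the exception in medulloblastoma, where its median was above that of the Gabra6-rich brains.

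No member had all 16 tumours below all 3 Gabra6-rich brains, a gap that 8.45% of all genes tested had. The count was 2 without normal brain Z2 (Resp18 and Htr2c) and 1 without medulloblastoma C1 (Kalrn). For 7 of 10 members at least 8 of the 10 medulloblastomas lay below all 3 Gabra6-rich brains, which held for 27.6% of all genes tested. For 3 members, Hpca, Kalrn and Rasgrp1, all 6 gliomas did, as for 15.7% of all genes. Against the other 9 normal brains, 9 of 10 members had all 16 tumours below every brain, Hpca being the exception through medulloblastoma. Of all genes 9.01% had that gap. Nothing is read from any of these counts of tumours against normal brains, since the choice used the same tumours and normal brains.

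The neuron lists were described over the same split of the normal brains. Pan-neuronal genes are those that neurons of all regions use. Between the Gabra6-rich and the other 9 normal brains the median log2 difference of the pan-neuronal list was -0.43 over 23 genes. For 8 of its 23 genes (34.8%) all Gabra6-rich brains lay below the rest, against 9.17% of all genes tested. Snap25, a synaptic vesicle fusion protein, was 0.31 higher in the Gabra6-rich brains, and Map2, a microtubule protein of dendrites, differed by -0.72 (log2 medians). Syt1, a vesicle calcium sensor, differed by -1.20 and Stx1a, a partner of Snap25 named after its value was seen, by -4.02. The forebrain neuron list had a median of -2.41 over 16 genes, with 12 of 16 (75%) below without overlap. The interneuron list had a median of -2.04 over 11 genes, with 7 of 11 (63.6%) below. The median of the members was -2.85. They were chosen on these normal brains and the lists were not, so the members are not ranked against the lists.

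Tumours were set against the Gabra6-rich brains for the same lists. Relative to the Gabra6-rich brains, the pan-neuronal list differed by a median of -1.82 in medulloblastoma and -2.05 in glioma. For 12 of its 23 genes (52.2%) every tumour lay below every Gabra6-rich brain, against 8.45% of all genes tested. The forebrain list differed by 0.00 in medulloblastoma and -0.38 in glioma, with 2 of 16 genes (12.5%) below without overlap. The members, at -3.49 and -2.68, were lower in tumours than in Gabra6-rich brains and lower in Gabra6-rich brains than in the rest. Low tumour values were part of the choice of the members but not of the lists. The depth of the members in tumours is therefore not compared with that of the lists.

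**Figure D2:**
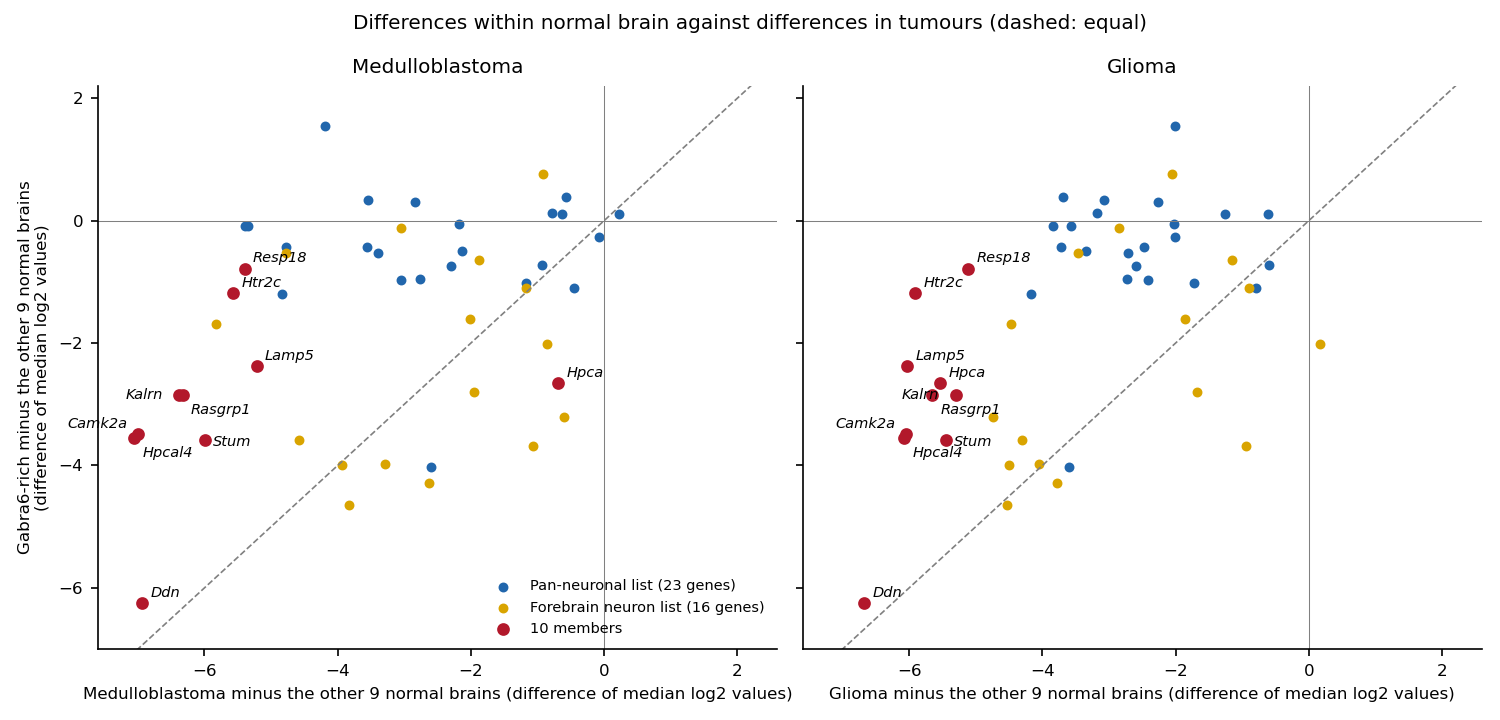
Log2 difference of medians between the 3 Gabra6-rich and the other 9 normal brains (vertical axis) against that between medulloblastoma (left) or glioma (right) and the other 9 normal brains (horizontal axis), for the 10 members, 23 pan-neuronal genes and 16 forebrain neuron genes. Points above the dashed line of equality lie lower in tumours than in Gabra6-rich brains; Hpca lies below it in medulloblastoma, and Ddn lies near it in both panels.

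Seen by array, the median log2 level of the 10 members was 7.09 in Z2, 7.64 in B2 and 8.06 in C5, against 10.42 to 10.96 in the other 9 normal brains. The pan-neuronal median of the same 3 arrays was 9.78, 10.42 and 10.21, against 10.06 to 10.60 in the other 9. The Gabra6-rich brains therefore overlapped the others in pan-neuronal level, apart from Z2, and were all below them in the members. In tumours the pan-neuronal median was lower too, 7.29 to 9.23 in medulloblastoma and 6.52 to 8.29 in glioma.

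Among medulloblastomas, C1 had a member median of 8.44 and C6 of 7.06, and the other 8 had 3.66 to 5.38. Both also had the highest pan-neuronal medians, 9.23 and 8.96, and the highest forebrain medians, 6.63 and 6.37. Medulloblastoma C1 had Ddn at 1091, Hpcal4 at 881.4 and Camk2a at 695.7, the highest tumour value of each. Among gliomas, B3 had a member median of 7.12, and the other 5 had 3.75 to 5.50. Its oligodendrocyte markers, at 9.66, and its pan-neuronal median, at 8.29, were also the highest of the gliomas. The part of normal tissue in these pieces was not tested. Without C1, C6 and B3 the median difference of the members was -5.78 in medulloblastoma and -5.58 in glioma.

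**Figure D3:**
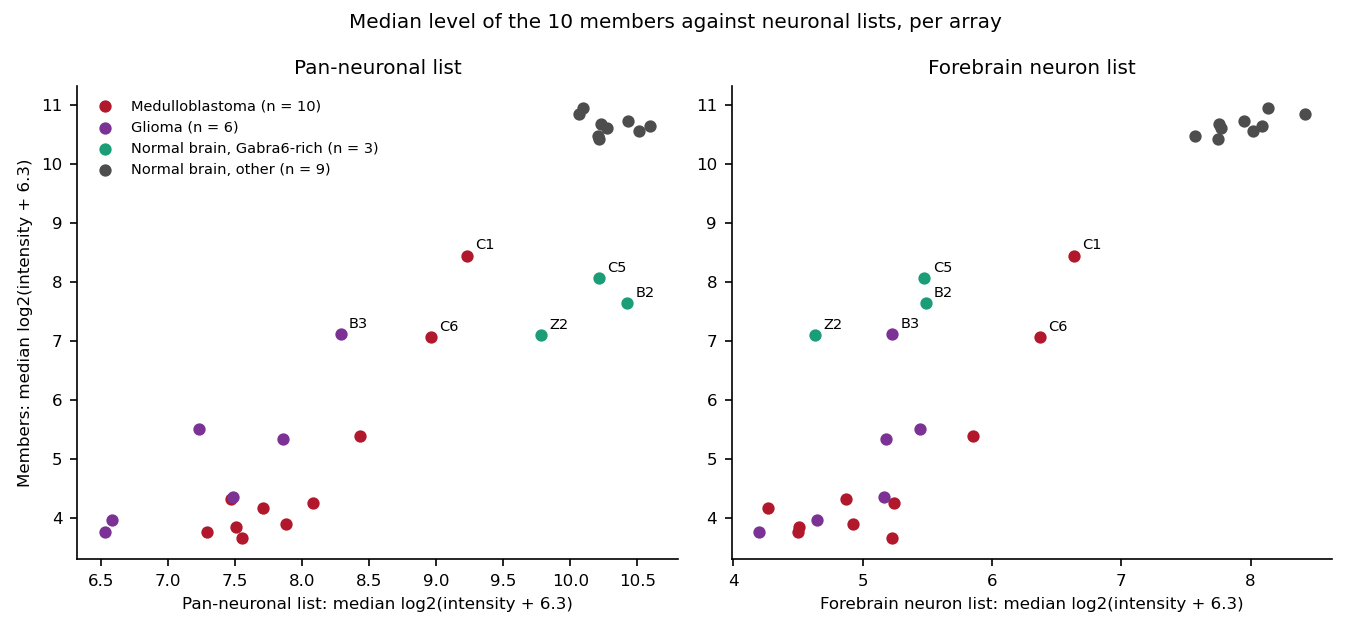
Median log2(intensity + 6.3) of the 10 members (vertical axis) against that of the pan-neuronal list (left) and of the forebrain neuron list (right), 1 point for each of the 28 arrays, by tissue. In the left panel the Gabra6-rich brains Z2, B2 and C5 have pan-neuronal medians of 9.78 to 10.42 with member medians of 7.09 to 8.06, while medulloblastomas C1 and C6 and glioma B3 are the tumours with the highest member medians.

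The genotype comparisons used contrasts that played no part in the choice, and none of the 10 members passed in any of them. In medulloblastoma, the difference of Rictor-null from p53-null-only tumours was positive for all 10 members, with a median of 1.24 on the log2 scale, against 0.06 over all genes. The direction rested in part on tumour C1: without it the median was 0.51, with Resp18 at -0.18 and Htr2c at -0.61. Without p53-null-only A3 or A6 the Htr2c difference was -0.33 and -0.28. The adjusted p from limma lay between 0.981 and 0.996, and no member had an unadjusted p under 0.05. Of all genes tested 0.00718% were called. Camk2a had the largest difference, 2.15 with a 95% interval of -0.59 to 4.89. It read 695.7, 6.7, 15, 9.1 and 204.2 in Rictor-null medulloblastomas C1, C2, C4, C5 and C6, against 0.4, 2.1 and 32.4 in p53-null-only A3, A5 and A6. Arrays C1 and C6 were far above the other 3 Rictor-null tumours, whose values overlapped those of the p53-null-only group.

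Kalrn had the smallest unadjusted p in that comparison, 0.0737, with a difference of 1.92 (-0.22 to 4.06; adjusted p 0.981 from limma). It read 294.2, 9.5, 0.9, 18.2 and 83.9 in the Rictor-null medulloblastomas, against 0.8, 5 and 5.9 in the p53-null-only ones. The groups overlapped through Rictor-null C4, at 0.9.

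Against the 2 Rictor-heterozygous medulloblastomas, the Rictor-null ones differed by a median of 0.34 over the members (0.01 over all genes), from -1.60 for Htr2c to 2.03 for Ddn. The median was -0.41 without C1, -0.16 without B4 and -0.10 without C6. It was 1.10 without B6, 0.85 without C2, and 0.79 without either C4 or C5 in turn. No member passed, with an adjusted p of 1 from limma for all 10 and none under 0.05 before adjustment, and 0.00718% of all genes were called. Htr2c read 186.8, 3.6, 1.8, 8.1 and 5.5 in the Rictor-null tumours, against 169 and 13 in heterozygous B4 and B6. Its 95% interval ran from -4.39 to 1.19, and C1 and B4 stood far above the other 5 of these 7 arrays.

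In normal brain, Rictor-null and heterozygous samples differed by a median of 0.10 over the members (0.01 over all genes), with no member passing (adjusted p of 1 from limma for all 10, none under 0.05 before adjustment, 0% of all genes called). Lamp5 had the largest difference, -0.95 (SE 0.44; 95% interval -1.92 to 0.02; unadjusted p 0.0539 before correction in limma). It read 600.2, 258.6, 830.8, 113.8 and 508.1 in Rictor-null C1, C2, C3, C5 and C6, against 817.5, 922, 558.3, 828.9 and 617 in heterozygous B1, B2, B4, B6 and B7. The groups overlapped. Each of these groups held 1 Gabra6-rich brain, and without B2, C5 and Z2 the differences of the 10 members ran from -0.45 for Lamp5 to 0.45 for Htr2c. Their standard errors were then 0.114 to 0.295, against 0.318 to 1.5 with all brains, and no member passed. The difference between the Rictor-null effects in medulloblastoma and in normal brain had a median of 0.42 over the members, with an adjusted p of 1 for all 10 in limma, none under 0.05 before adjustment and 0% of all genes called. With the shared code as a block, which rests on 4 Rictor-null and 2 heterozygous pairs, that median was 1.71. No member passed then either, with 2 under 0.05 before adjustment and a smallest adjusted p of 1 in limma.

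**Figure D4:**
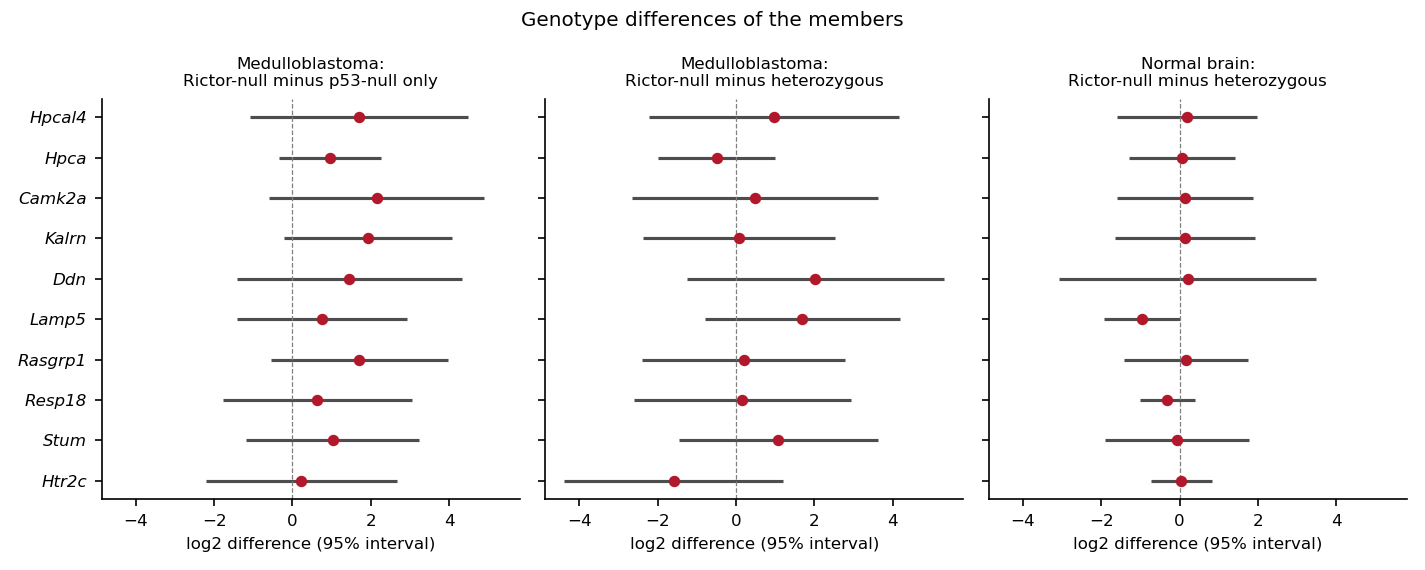
Log2 differences (points) with 95% intervals (bars) from limma for the 10 members: Rictor-null minus p53-null-only medulloblastoma (5 and 3 arrays), Rictor-null minus heterozygous medulloblastoma (5 and 2) and Rictor-null minus heterozygous normal brain (5 and 5). All 30 intervals include 0. The 10 points of the left panel lie above 0 with all arrays, but those of Resp18 and Htr2c lie below 0 without medulloblastoma C1, and the widest interval in normal brain is that of Ddn, -3.08 to 3.49.

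The wider families of the members, which the choice did not use, were tested in the same fit. Of 84 relatives listed 69 were tested, and of these 52 fell and 4 rose in medulloblastoma, and 53 fell and 8 rose in glioma (limma, adjusted p under 0.05), where 32% and 25.5% of all genes fell. Their median log2 difference was -1.91 in medulloblastoma and -1.72 in glioma. These lists were drawn up with earlier results of the same data known, and exceptions named below were picked after their values were seen.

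Of 8 other calcium sensors, 6 fell in medulloblastoma, led by Vsnl1 (visinin-like 1) at -4.40, Kcnip4 at -3.69 and Kcnip2 at -3.38, the last pair being subunits that bind potassium channels. In glioma 5 fell, with Kcnip4 at -3.91, Ncs1 at -3.76 and Vsnl1 at -3.40, and 1, Kcnip3, rose by 1.21. Hpcal1, of the same family as Hpca and Hpcal4, differed by -0.34 in medulloblastoma (adjusted p 0.43 from limma) and fell by 1.45 in glioma. The median log2 difference of the 8 was -2.48 in medulloblastoma and -2.04 in glioma.

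All 11 relatives of Camk2a tested fell in medulloblastoma and 10 fell in glioma, with medians of -2.17 and -1.92. Camkv, a kinase-like protein without activity, was lowest at -4.31 and -4.57, and Camk2b, the other main brain subunit of the kinase, was at -3.05 and -2.24. Camk1d, of the CaM kinase I group, was at -3.33 and -2.28, and Camk4, the nuclear kinase, was at -3.44 in glioma. Camk1 fell by 0.40 in medulloblastoma and rose by 0.89 in glioma.

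Of 14 postsynaptic scaffold genes, 12 fell in medulloblastoma and 13 in glioma, with medians of -2.22 and -2.18. Psd, an Arf exchange factor, was at -3.06 and -3.57, Baiap2, an actin regulator, at -2.97 and -3.53, and Dlg2, a scaffold of glutamate receptors, at -2.89 and -3.52. Shank1 did not pass in either, at 0.07 (adjusted p 0.695) and -0.11 (adjusted p 0.573, limma).

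The exchange factors divided. Of 13, 6 fell and 2 rose in medulloblastoma, and 6 fell and 3 rose in glioma, with medians of -0.40 and -0.13. Rasgrf2 and Rasgrf1, calcium-sensitive factors for Ras in neurons, were at -4.46 and -3.95 in medulloblastoma and -3.95 and -3.51 in glioma. Tiam2, another exchange factor, was at -1.91 in medulloblastoma. Vav2, found in many tissues, rose by 1.79 and 1.19 and Arhgef7 by 0.56 and 1.10. Trio, the nearest paralog of Kalrn, differed by -0.07 in medulloblastoma (adjusted p 0.62 from limma) and rose by 1.41 in glioma, where Kalrn was at -4.85.

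Of 13 dense-core vesicle genes, the compartment of peptide hormones, 12 fell in each tumour. Vgf, a neuropeptide precursor, was at -3.39 in medulloblastoma and -3.81 in glioma, and Ptprn, a membrane protein of these vesicles, at -3.06 and -3.20. Pcsk1n, an inhibitor of a prohormone convertase, was at -3.06 in medulloblastoma, and Scg2, secretogranin II, at -3.22 in glioma. Of 7 other serotonin receptors, 5 fell in medulloblastoma and 7 in glioma, with Htr1b at -2.98 and -2.79 and Htr5a at -2.28 and -2.08. The lysosomal relatives of Lamp5 went the other way: 0 of 3 fell and 2 rose in medulloblastoma, and 0 fell and 3 rose in glioma. Lamp2 rose by 1.02 and 1.27, and Cd68, made by macrophages and microglia, by 0.83 and 0.73.

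Among pan-neuronal genes 19 of 23 fell and 1, Elavl3, rose by 0.28 in medulloblastoma, and 21 of 23 fell in glioma. Markers of other cell types moved as well. In medulloblastoma 11 of 11 oligodendrocyte and 9 of 12 astrocyte markers fell, 1 astrocyte marker rose, and 11 of 11 cell cycle genes rose, with medians of -2.43, -1.41 and 4.82. In glioma 7 of 11 oligodendrocyte markers fell and 1 rose, 9 of 9 oligodendrocyte precursor markers and 11 of 11 cell cycle genes rose, with medians of -1.76, 3.45 and 3.81. The part of cell content in the neuronal falls was not tested. The neurofilament gene Nefl was lowest, at -4.62 and -4.45, with Eno2 (neuronal enolase) at -4.20 and Thy1 at -3.99 in medulloblastoma and Syt1 at -4.29 and Stmn2 at -4.04 in glioma. Of the forebrain neuron genes 13 of 16 fell in medulloblastoma and 14 of 16 in glioma, led in both by Cck, a neuropeptide, at -4.48 and -4.32. The cerebellar granule neuron genes were split by tumour. In medulloblastoma 7 of 13 rose and 1, Gabrd, fell by 3.01, with Pax6, a transcription factor of granule neuron progenitors, the largest rise at 3.22, and in glioma 0 rose and 3 fell.

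The genes whose pattern over the 28 arrays was most like that of the members were found by the mean absolute difference between median-centred log2 values and the median profile of the 10. Cck was nearest, at 0.632, followed by Nrsn1 at 0.640, Phf24 at 0.689, Cracdl at 0.722, Kcnc2 at 0.728, Camkv at 0.757, Ccn3 at 0.785 and Gabra5 at 0.835, against a median of 2.53 over all genes. Cck had a median intensity of 12.25 in medulloblastoma, 42.35 in glioma, 319.5 in the Gabra6-rich and 1047 in the other normal brains. The members themselves lay between 0.334, for Hpcal4, and 2.53, for Hpca, with Ddn at 1.96. Hpca was therefore as far from the common profile as a typical gene of the array. This is a description across 28 arrays that share tissues and scaling.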

How the data were processed

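RNA of 10 medulloblastomas, 6 gliomas and 12 normal brains was measured on Affymetrix mouse arrays with 45101 probe sets. The authors' table gives intensity per probe set, unlogged, from MAS5 and GCOS per the submitters' processing notes (versions not given in the sources used here). Detection calls were not used. Precision is limited by how many arrays there are.

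Genes were assigned from GEO's platform annotation: 34945 had exactly 1 symbol, 932 had several and were not used, and 64 controls were left out. The brightest probe set represented each of 18193 genes, and 13931 with a mean above the 30th percentile (3.88 on the log2 scale) were tested. All log2 values are log2(intensity + 6.3), which understates the differences of dim genes. No detection floor was set on the folds. No 2 arrays were identical.

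Tissue differences came from 1 limma fit over 28 arrays with tissue and genotype as terms. Genotype was tested within the 12 normal brains and within the 10 medulloblastomas, and its difference between tissues in a fit of 10 group means. Fits used lmFit and eBayes with a trend. Genes with a two-sided Benjamini-Hochberg adjusted p under 0.05 over all genes tested were called. On simulated arrays, 97% of genes shifted by 2 on the log2 scale were recovered for medulloblastoma against normal brain, 96% for glioma, 94% for Rictor in normal brain and 84% for Rictor-null against p53-null-only medulloblastoma, each over 13931 genes. Of the calls made in these simulations 8.37%, 4.39%, 3.52% and 6.22% were false, in the same order. The shifted genes were drawn at random from all genes, each with its own spread, so recovery for the members was not measured. Standard errors of the members were 0.597 to 1.31 for Rictor-null against p53-null-only medulloblastoma and 0.318 to 1.5 for Rictor in normal brain. Lists were described by counts and medians.

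The members and lists were chosen with earlier results of these data known. Named genes were the 10 members, up to 3 called genes with the largest difference in each list and tissue comparison, the 8 genes nearest to the members' profile, Gabra6, and the 2 pan-neuronal genes with the highest mean. Other genes were named after their values were seen. Promoters came from RefSeq (GRCm38.p6), with an entry for 8 members. Software was limma 3.58.1 in R 4.3.3, and pandas 2.3.3, numpy 2.4.6 and matplotlib 3.10.9 in Python 3.11.15.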

Additional observations from a re-analysis of the deposited data

Results flagged for a closer look

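In 14 of 40 combinations of a member with a labelled group of 4 or 5 arrays, 1 array lay far from the others of its group by the gap to its neighbour relative to the whole range; chance gives about 1 in 20. The 14 involved 4 arrays. The combinations reuse the same arrays, and most members vary together, so the 40 are not independent. Nothing is read from their number.

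Normal brain B2, which is Gabra6-rich, was the low array among the 5 Rictor-heterozygous normal brains for 7 members. It read 163.6 for Hpcal4 (others from 1660.5), 267.2 for Hpca (others from 1370), 222.5 for Camk2a (others from 1994.5) and 105.6 for Kalrn (others from 1446.6). It read 21.7 for Ddn (others from 1890.7), 167.3 for Rasgrp1 (others from 1549.3) and 114.9 for Stum (others from 892.9). Normal brain C5, also Gabra6-rich, was the low array among the 5 Rictor-null normal brains for 5 of these. It read 213.5 for Hpcal4 (others from 1806.3), 267.5 for Camk2a (others from 1782.3), 27.8 for Ddn (others from 2260.2), 279.7 for Rasgrp1 (others from 1532.9) and 91.3 for Stum (others from 909.8).

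Htr2c was high in 2 tumours. Glioma B3 read 186.4, against 3 to 4.1 in the other 3 Rictor-heterozygous gliomas. Medulloblastoma C1 read 186.8, against 1.8 to 8.1 in the other 4 Rictor-null medulloblastomas.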

How the results depend on the processing

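The median difference of the members ranged from -5.78 to -3.85 in medulloblastoma and from -5.58 to -4.13 in glioma over the other settings. The smallest falls came from the median over probe sets in medulloblastoma (-3.85) and a pseudocount of 32 in glioma (-4.13). The within-group spread of single members is wide (median SD 1.57), so it is a lenient measure for these medians. Relatives lower ranged from 46 to 55 in medulloblastoma and 38 to 56 in glioma, and pan-neuronal genes lower from 15 to 19 and 16 to 22. The lowest glioma counts, 38 and 16, came within the arrays whose titles carry YZ2. No member was called for genotype under any setting. Of 260 values of single members 251 kept within the replicate spread, 9 moved and none reversed; 6 of the 9 came from taking the median over the probe sets of Camk2a, Kalrn and Rasgrp1.

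With arrays left out one at a time, the members with all Gabra6-rich brains below every other normal brain numbered 7 to 10, and those with every tumour below every Gabra6-rich brain 0 to 2 (2 without normal brain Z2, 1 without medulloblastoma C1).

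Tumours and normal brains share 11 codes. For A6 and C3 an array was alone in its group and could not be checked. In the other 9 pairs the correlation of deviations from group means was -0.04 to 0.321 and over 0.1 in 5, among them all 4 Rictor-null pairs. The labels do not say what a code marks, so the block is given as an alternative. With the code as a replicate block in place of genotype the median difference of the members was -4.8 in medulloblastoma and -5.23 in glioma, with 51 relatives lower in each. For the difference of the Rictor-null effects, the block, added after seeing the data, gave 0 members called and a median of 1.71, against 0.42. No paired analysis was possible for the genotype comparisons within a tissue because the groups compared share no code.

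The alternatives without medulloblastomas C1 and C6 and glioma B3, without normal brain C2 and within each title prefix were chosen after seeing the data. The dim level of the members in tumours limits the folds.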
